A study of Mus musculus with 4 samples.

Results

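The genes described here are 40 components of Wnt signalling: 9 Wnt ligands, the ligand-acylating enzyme Porcn, 9 Frizzled receptors, the co-receptors Lrp5 and Lrp6, the R-spondin receptor Lgr4, 8 secreted modulators, 6 cytoplasmic proteins and 4 nuclear transcription factors. They were chosen by name as a pathway, and their probes were found through the RefSeq accession that the array files give for each probe. All 40 were on the array, out of 20956 named genes. Where a gene had several probes, the probe with the highest mean level was used.

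Wnt proteins are lipid-modified ligands that bind a Frizzled receptor together with Lrp5 or Lrp6. Binding stops the complex of Axin and Apc from marking beta-catenin for destruction, and beta-catenin then acts with the Lef1 and Tcf proteins on target genes. Secreted Frizzled-related proteins, Dickkopf proteins and Wif1 hold the ligands or co-receptors in check outside the cell, while R-spondins acting through Lgr4 and its relatives keep Frizzled receptors at the surface. In preadipocytes, canonical Wnt signalling, with Wnt10b as its best studied ligand, is known as a brake on fat cell formation.

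The RNA came from 3T3-L1 cells, mouse fibroblast-like precursors that become fat cells when given a hormone cocktail. The 4 groups were knockdown cells on day 2, control cells on day 2, knockdown cells on day 0 and control cells on day 0, with 1 array each. The knockdown was directed at lamp2a, which encodes the lysosomal receptor of chaperone-mediated autophagy, and the controls are labelled only as control. How the knockdown was made, and whether the cells are 1 clone, is not stated in the labels or file headers. All cells were grown to confluence (day 0) in medium with 10% serum, and day 2 cells had then been given 160 nM insulin, 250 nM dexamethasone and 0.5 mM isobutylmethylxanthine. Since no group had a replicate array, no test was run, and a gene is called higher or lower only by a fixed size of 2-fold. A signal here is the processed intensity after each array was scaled to its own 75th percentile, and it can be compared between arrays for 1 gene but not between genes.

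Lamp2, the gene behind lamp2a, was read first. One of the 2 Lamp2 probes had a normalised signal of 4471 in knockdown cells, against 15703 in control cells, on day 2, and of 6569.5 in knockdown cells, against 27156 in control cells, on day 0. That is 3.51-fold lower on day 2 and 4.13-fold lower on day 0. The other Lamp2 probe was 1.08-fold lower on day 2 and 1.29-fold lower on day 0. The array files give the 2 probes different RefSeq transcripts of Lamp2, but do not name the splice form that either reads. The control day 0 array stood apart from the rest: it alone came from slide 1, and wherever it is used group and slide cannot be told apart, and its dim probes read low. The median normalised signal of 1072 olfactory receptor genes, which stand for array background in these cells, was 29.6 in knockdown cells and 31.9 in control cells on day 2, and 32.9 in knockdown cells and 9.72 in control cells on day 0. A gene is called bright here when its mean level lay above the 95th percentile of those olfactory receptor genes, a normalised signal of 312, and dim otherwise. Of the Wnt genes 21 were bright and 19 dim, and 33 were well above background on all 4 arrays. Sfrp1, Wif1, Axin2 and Tcf7 were well above background on 1 to 3 arrays. Frzb and Dkk2, both secreted antagonists, and the ligand Wnt2 were not well above background on any array and were not compared.

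**Figure D1:**
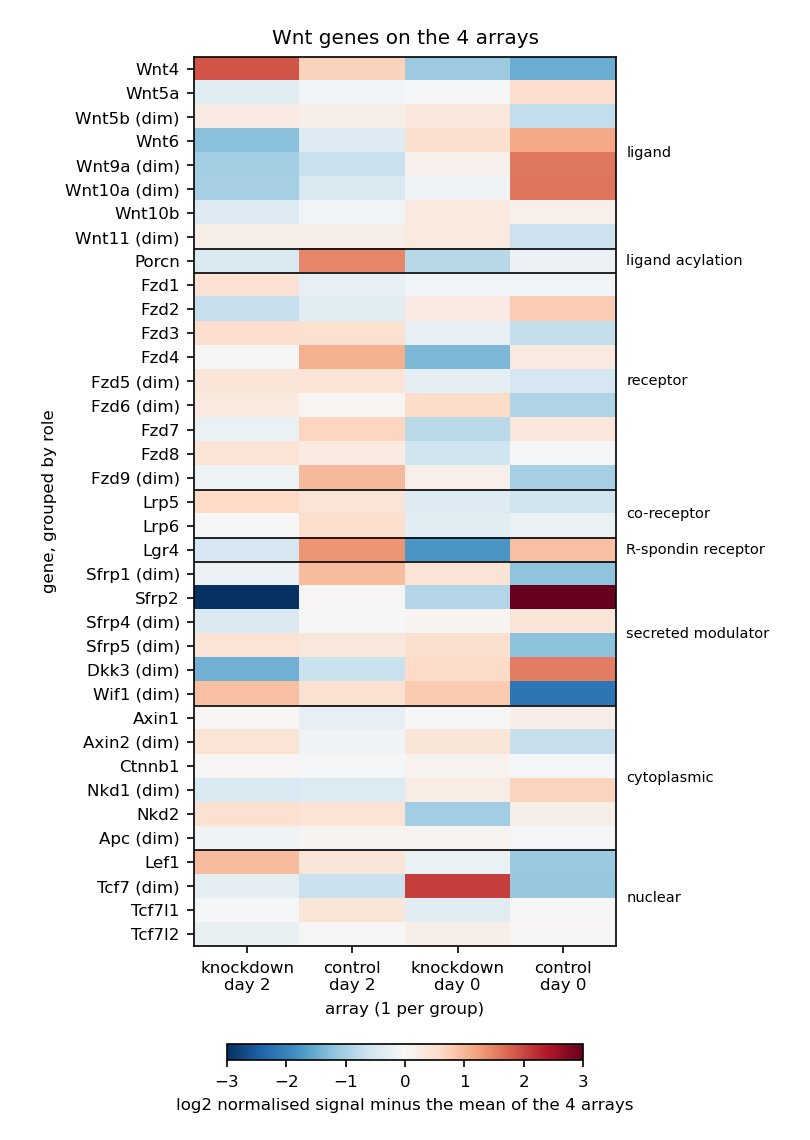
Each row is 1 of the 37 Wnt genes that were well above background on at least 1 array, and each column 1 array; colour shows the log2 normalised signal minus the gene's mean over the 4 arrays. Sfrp2 is darkest red on the control day 0 array and darkest blue on the knockdown day 2 array, Wnt4 is red on both day 2 arrays, and Ctnnb1 is near white throughout.

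Among the 21 bright Wnt genes, 3 were lower in knockdown cells by 2-fold or more on both days: Sfrp2, Lgr4 and Fzd4. The same 3 were so among all 36 Wnt genes compared on both days, dim genes included. Lgr4 is bright through its control arrays alone. Of all bright genes on the array 1.47% were lower on both days, and of all compared genes 1.48%. None of the 36 Wnt genes compared on both days was higher by 2-fold or more on each, against 0.983% of all compared genes and 0.939% of the bright ones. Sfrp2 encodes a secreted Frizzled-related protein that binds Wnt ligands and is made in quantity by fibroblast-like precursor cells. On day 2 its normalised signal was 136 in knockdown cells, against 1092 in control cells. On day 0 it was 579.8 in knockdown cells, against 14576 in control cells. Sfrp2 was thus 8.04-fold lower in knockdown cells on day 2 and 25.1-fold lower on day 0, and each control array read above both knockdown arrays. In RNA from a whole culture, fewer cells of a type and less RNA per cell cannot be told apart.

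Lgr4, the receptor through which R-spondins stabilise Frizzled receptors, had a normalised signal of 290.0 in knockdown cells, against 1028 in control cells, on day 2. On day 0 it had 123 in knockdown cells, against 771 in control cells. The ratio was 3.54-fold lower in knockdown cells on day 2 and 6.29-fold lower on day 0, and the array values of the kinds of cell did not overlap. Fzd4, a Frizzled receptor that binds both Wnts and the ligand norrin, had 2593 in knockdown cells and 5539 in control cells on day 2. On day 0 Fzd4 had 1039 in knockdown cells and 3184 in control cells. Fzd4 was 2.14-fold lower in knockdown cells on day 2 and 3.06-fold lower on day 0, and here too both knockdown arrays read below both control arrays. That order of the arrays held for 6 of the 21 bright Wnt genes, these 3 with Fzd7, Porcn and Tcf7l1, where it held for 14.6% of all bright genes. The opposite order held for 1 of 21, Ctnnb1, against 16.3%. Where each of the 4 arrays measured the gene, dim genes included, the shares were 12.7% below and 17.3% above, with 6 and 4 of 33 Wnt genes. For Fzd7 the order depended on the probe. A second Fzd7 probe read 639.3 in knockdown cells on day 0, above its 454.1 in control cells on day 2.

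**Figure D2:**
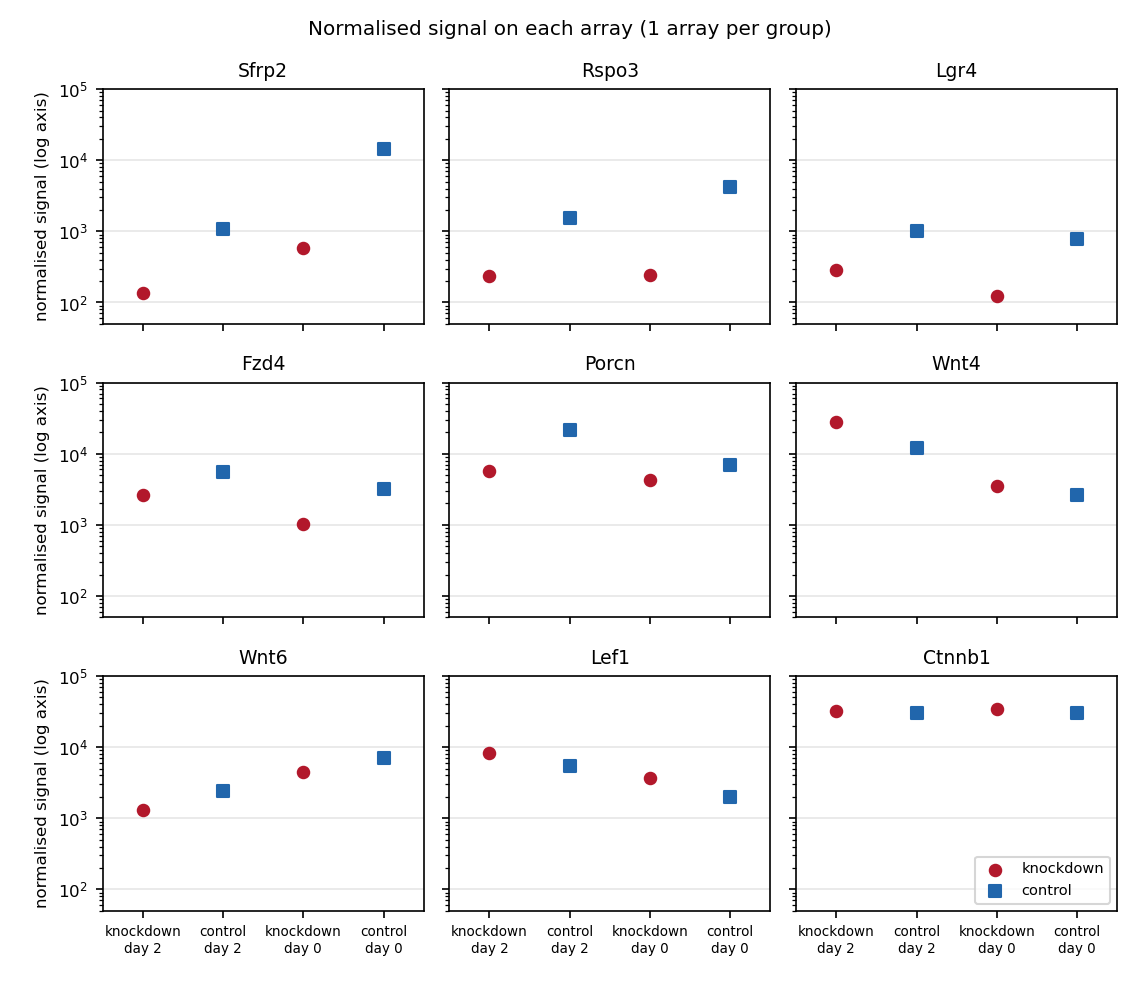
Normalised signal (log axis) of 8 Wnt genes and of the R-spondin Rspo3 on each array, with 1 array per group; circles are knockdown cells and squares control cells. Sfrp2, Rspo3, Lgr4 and Fzd4 lie below control in knockdown cells on both days, Porcn parts from control mainly on day 2, Wnt4 and Lef1 are higher on day 2, and Ctnnb1 lies between 30366 and 34041 on every array.

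The sequences just upstream of the start sites of these 3 genes are shown because the genes moved together between the kinds of cell, with that of Wnt4, which went the other way on day 2. Each is the 250 bases before the start of transcription on the plus strand, from RefSeq on GRCm38.p6, and capitals mark matches to any of 8 short motifs searched on both strands. The windows are chr3:83766071-83766320 for Sfrp2, chr2:109917397-109917646 for Lgr4, chr7:89404116-89404365 for Fzd4 and chr4:137277385-137277634 for Wnt4.
Sfrp2: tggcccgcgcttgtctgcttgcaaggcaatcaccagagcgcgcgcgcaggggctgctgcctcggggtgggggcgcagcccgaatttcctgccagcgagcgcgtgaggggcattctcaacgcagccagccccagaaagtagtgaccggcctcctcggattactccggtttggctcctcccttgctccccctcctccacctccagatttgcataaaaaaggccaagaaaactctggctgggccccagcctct
Lgr4: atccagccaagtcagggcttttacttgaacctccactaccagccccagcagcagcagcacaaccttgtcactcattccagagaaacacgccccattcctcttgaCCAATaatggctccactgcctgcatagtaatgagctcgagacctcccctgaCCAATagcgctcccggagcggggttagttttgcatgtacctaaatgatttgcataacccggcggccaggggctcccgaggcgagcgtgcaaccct
Fzd4: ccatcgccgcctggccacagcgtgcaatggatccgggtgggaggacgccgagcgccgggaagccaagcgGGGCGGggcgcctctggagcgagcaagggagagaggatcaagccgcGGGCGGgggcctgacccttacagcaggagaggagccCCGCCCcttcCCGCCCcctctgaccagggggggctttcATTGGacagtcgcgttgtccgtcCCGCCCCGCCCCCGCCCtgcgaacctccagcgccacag
Wnt4: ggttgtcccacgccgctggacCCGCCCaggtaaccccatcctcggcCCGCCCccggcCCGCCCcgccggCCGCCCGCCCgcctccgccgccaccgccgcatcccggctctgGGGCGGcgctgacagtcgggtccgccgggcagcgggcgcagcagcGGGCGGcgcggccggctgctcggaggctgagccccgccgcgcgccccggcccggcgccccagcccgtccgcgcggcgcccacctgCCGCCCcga
The Sfrp2 window was 63.6% G and C and held no match. The Lgr4 window was 55.6% G and C and held 2 CCAAT boxes (CCAAT), 95 and 146 bases before the start. The Fzd4 window was 72.8% G and C, with 1 CCAAT box on the minus strand and 7 GC boxes (GGGCGG), and the Wnt4 window was 85.2% G and C with 8 GC boxes. Some neighbouring GC boxes in these windows overlap each other. No match to the TCF/LEF cores CTTTGAT and CTTTGAA was found in the 4 windows. RefSeq's promoter table held 26 of the 40 genes in 35 windows. The GC box was in 25 of the 35 windows, against 32.7% of all 32851 windows in the table, and CCAAT was in 8 of 35, against 33.8%. The cores CTTTGAT and CTTTGAA were in 2 and 0 of the 35, against 3.21% and 4.46% of all windows. The TATA box (TATAAA) was in 8, the glucocorticoid receptor core (TGTTCT) in 6, the CRE core (TGACG) in 6 and the E-box (CACGTG) in 4 of the 35, against 12.4%, 16.1%, 17.8% and 6.02% of all windows. Such matches describe the letters of these windows only.

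Counted over all compared Wnt genes, knockdown cells on day 2 had 1 of 36 higher by 2-fold or more and 5 lower than control cells, where 2.86% of all compared genes on the array were higher and 3.98% lower. Within the bright genes, 1 of 21 was higher and 4 were lower, against 3.02% and 3.61% of all bright genes. The bright Wnt genes lower on day 2 were Sfrp2, Lgr4, Fzd4 and Porcn, and the higher one was Wnt4. On day 0, 5 of 37 Wnt genes were higher and 7 lower in knockdown cells, where 18.3% of all compared genes were higher and 4.18% lower. Of the 21 bright Wnt genes 0 were higher and 5 lower on day 0, against 5.63% and 3.1% of all bright genes. The 5 were Sfrp2, Lgr4, Fzd4, Fzd7 and Nkd2. Lgr4 counts as bright through its control arrays alone, since both its knockdown arrays lay under the limit of 312, with 290.0 on day 2 and 123 on day 0. Sfrp2 lay under that limit in knockdown cells on day 2, with 136. The median log2 ratio of the bright Wnt genes was -0.27 on day 2 and -0.36 on day 0, where that of all bright genes was 0.04 on day 2 and -0.02 on day 0.

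**Figure D3:**
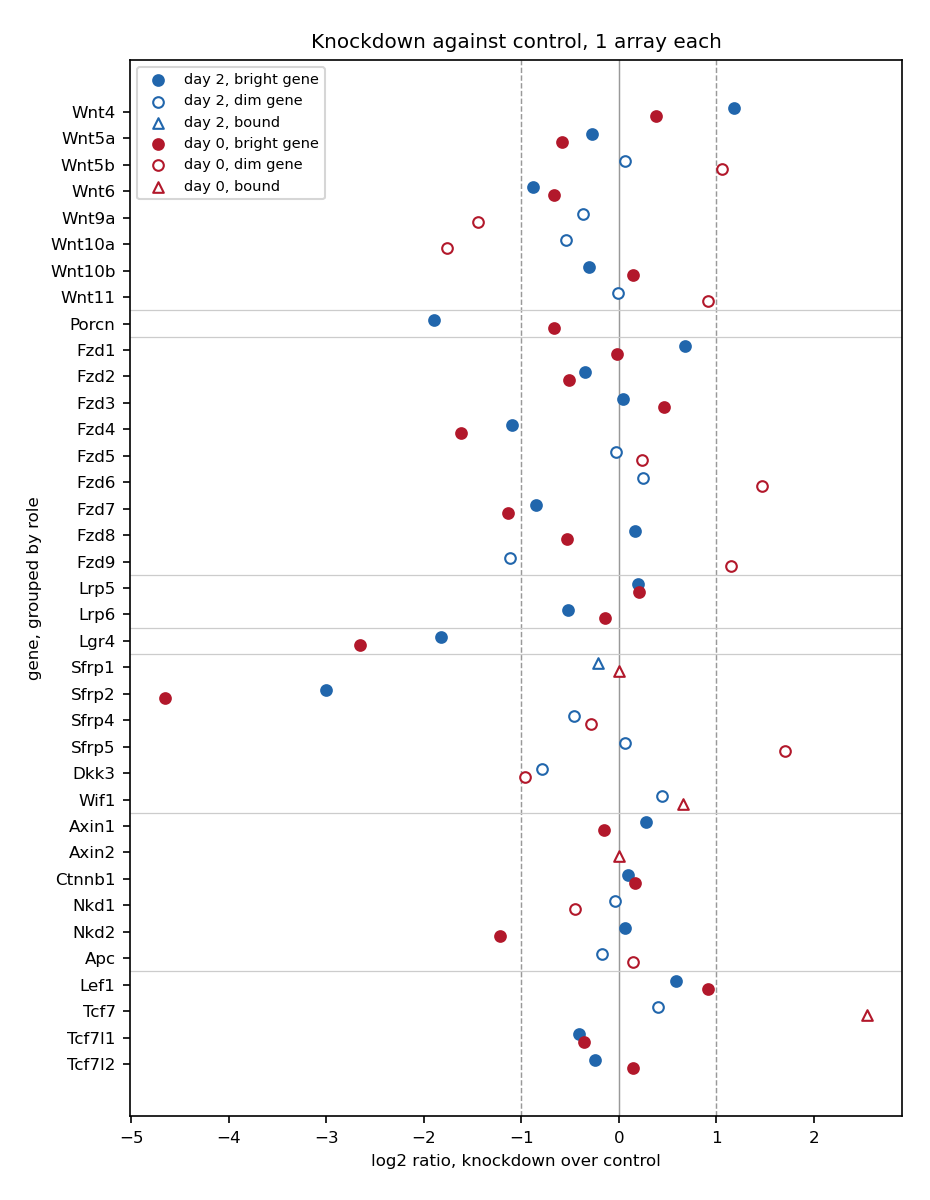
Log2 ratio of knockdown over control cells for each Wnt gene on day 2 (blue) and day 0 (red), 1 array per group; filled points are bright genes, open circles dim genes, triangles bounds, and dashed lines mark 2-fold. Sfrp2, Lgr4 and Fzd4 lie left of the 2-fold line on both days, and the genes right of it on day 0 are all dim.

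Among the receptors, Fzd7, a Frizzled often studied in stem cells, was 1.79-fold lower in knockdown cells on day 2 and 2.20-fold lower on day 0. Its normalised signal was 1634 in knockdown cells and 2933 in control cells on day 2, and 1071 in knockdown cells and 2351 in control cells on day 0. A second Fzd7 probe gave a log2 ratio of -0.23 on day 2 and -0.24 on day 0, short of 2-fold. Fzd1 had 61759.6 in knockdown cells and 38433 in control cells on day 2, and 42994 in knockdown cells and 43380.1 in control cells on day 0. Fzd2 had 9812 in knockdown cells and 12493 in control cells on day 2, and 18759.8 in knockdown cells and 26722 in control cells on day 0. Fzd3, which also acts in axon guidance, had 710.5 in knockdown cells and 691 in control cells on day 2, and 420.5 in knockdown cells and 304 in control cells on day 0. These 3 and Fzd8, which lay between 348 and 692 on the arrays, were within 2-fold between knockdown and control cells on both days. The co-receptors Lrp5 and Lrp6 stayed within 2-fold too. Lrp6 had 9322 in knockdown cells and 13415 in control cells on day 2, which is 1.44-fold lower in knockdown cells, and 7293 in knockdown cells and 8043 in control cells on day 0.

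Porcn, the enzyme of the endoplasmic reticulum that acylates Wnt ligands before they can be secreted, had 5688 in knockdown cells, against 21215 in control cells, on day 2. On day 0 Porcn had 4334 in knockdown cells, against 6889 in control cells. It was 3.73-fold lower in knockdown cells on day 2 and 1.59-fold lower on day 0, and the control day 2 array was the high one of the 4. Nkd2, which binds Dishevelled and dampens the signal, had 9151 in knockdown cells and 8753 in control cells on day 2. On day 0 it had 3217 in knockdown cells and 7505 in control cells, so that it was 1.05-fold higher in knockdown cells on day 2 and 2.33-fold lower on day 0. Here the knockdown day 0 array was low and the other 3 lay close together.

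Of the ligands, Wnt4, a ligand known from kidney and reproductive tract development, had 27584 in knockdown cells, against 12139 in control cells, on day 2. On day 0 it had 3482 in knockdown cells, against 2664 in control cells. Wnt4 was 2.27-fold higher in knockdown cells on day 2 and 1.31-fold higher on day 0, and its second probe had a log2 ratio of 1.20 on day 2. Wnt6, a ligand linked to the preadipocyte state, had 1327 in knockdown cells and 2442 in control cells on day 2, and 4463 in knockdown cells and 7088 in control cells on day 0. Wnt6 was 1.84-fold lower on day 2 and 1.59-fold lower on day 0, short of 2-fold on each day. Wnt5a, which mostly signals without beta-catenin, was likewise within 2-fold, with 4030.4 in knockdown cells and 4870.0 in control cells on day 2 and 4956 in knockdown cells and 7401 in control cells on day 0. Wnt10b, the ligand best known for holding preadipocytes back, had 271 in knockdown cells and 334 in control cells on day 2, and 434 in knockdown cells and 392 in control cells on day 0, all close to the limit of the bright genes.

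The dim Wnt genes that passed 2-fold between the kinds of cell did so on day 0, with Fzd9 doing so on day 2 as well. The part of the low dim probes of the control day 0 array in these ratios was not tested. Sfrp5, a secreted Frizzled-related protein known as an adipokine, had 268 in knockdown cells and 256 in control cells on day 2, and 282 in knockdown cells and 86.2 in control cells on day 0. It was 3.27-fold higher in knockdown cells on day 0. Wnt5b, a relative of Wnt5a, had 337.5 in knockdown cells and 324 in control cells on day 2, and 356 in knockdown cells and 171 in control cells on day 0. The receptor Fzd6 had 68.9 in knockdown cells and 58.1 in control cells on day 2, and 82.9 in knockdown cells and 30 in control cells on day 0. Wnt5b was 2.08-fold, Fzd6 2.76-fold and Fzd9 2.22-fold higher in knockdown cells on day 0. All of these had their lowest signal on the control day 0 array, as the olfactory receptor genes did. Under quantile and under cyclic loess normalisation 1 Wnt gene in place of 5 was higher by 2-fold or more on day 0. Of all 19268 compared genes, 1098 and 994 were, in place of 3525. The remaining gene of the 5 was Tcf7, which encodes a transcription factor partner of beta-catenin. It had 28.2 in knockdown cells and 21.3 in control cells on day 2, and 142 in knockdown cells on day 0, against 15.5 in control cells on day 0, which is not well above background. The Tcf7 bound on day 0 was at least 5.85-fold higher in knockdown cells.

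Other dim genes went against the general shift on day 0. The ligand Wnt9a had 144.5 in knockdown cells and 186 in control cells on day 2, and 325 in knockdown cells and 885 in control cells on day 0, which is 2.72-fold lower in knockdown cells on day 0. Wnt10a, a close relative of Wnt10b, had 87.5 in knockdown cells and 127 in control cells on day 2, and 156 in knockdown cells and 528 in control cells on day 0, which is 3.39-fold lower on day 0. For both ligands the control day 0 array was the high one. Fzd9 had 82.8 in knockdown cells and 179 in control cells on day 2, which is 2.16-fold lower in knockdown cells, and 102 in knockdown cells and 46.1 in control cells on day 0. Wnt11, Fzd5, Sfrp4, Dkk3, Nkd1 and Apc were measured on all 4 arrays and stayed within 2-fold between kinds of cell on both days. The ligand Wnt11 lay between 98.9 and 186, the receptor Fzd5 between 104 and 196, and Sfrp4 between 53.0 and 92.0. Nkd1, the relative of Nkd2, had 32.6 in knockdown cells and 33.6 in control cells on day 2, and 52.2 in knockdown cells and 71.1 in control cells on day 0. Sfrp1, the secreted Frizzled-related protein most often named in fat tissue, read 12.2 in knockdown cells and 26.6 in control cells on day 2 and 18.1 in knockdown cells and 5.95 in control cells on day 0. It was well above background only in control cells on day 2 and knockdown cells on day 0. Axin2, the target gene most used as a readout of beta-catenin activity, was well above background only in knockdown cells on day 0, with 17.1, and no ratio is given for it. Wif1, which binds Wnt ligands outside the cell, had 41.5 in knockdown cells and 30.4 in control cells on day 2, and 38.2 in knockdown cells and 4.92 in control cells on day 0. It was not well above background in control cells on day 0 and gave no difference past 2-fold.

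Over 2 days of induction 6 Wnt genes passed 2-fold in the same direction in knockdown and in control cells. Wnt4 and Lef1 were higher on day 2, and Sfrp2, Wnt6 and the dim genes Wnt9a and Dkk3 were lower. Of 36 Wnt genes compared in both kinds of cell that is 2 higher and 4 lower, against 2.43% and 4.94% of all compared genes. Of the 21 bright ones it is 2 and 2, against 2.83% and 5.39% of all bright genes. With normexp background correction the knockdown log2 ratios of Lef1 (0.99), Wnt9a (-0.83) and Dkk3 (-0.76) were short of 2-fold. Wnt4 was 7.92-fold higher on day 2 than on day 0 in knockdown cells and 4.56-fold higher in control cells. Its second probe went the same way, with log2 ratios of 2.25 in knockdown cells and 1.28 in control cells. Lef1, the transcription factor that brings beta-catenin to DNA, had 8172 on day 2 and 3731 on day 0 in knockdown cells, and 5442 on day 2 and 1978 on day 0 in control cells. That is 2.19-fold higher on day 2 in knockdown cells and 2.75-fold higher in control cells, and the second Lef1 probe gave log2 ratios of 1.08 in knockdown cells and 1.45 in control cells.

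Sfrp2 was 4.27-fold lower on day 2 than on day 0 in knockdown cells and 13.3-fold lower in control cells. Wnt6 was 3.36-fold lower in knockdown cells and 2.90-fold lower in control cells. Wnt9a was 2.25-fold lower on day 2 in knockdown cells and 4.75-fold lower in control cells. Dkk3, a divergent member of the Dickkopf family, had 44.9 on day 2 and 182 on day 0 in knockdown cells, and 77.1 on day 2 and 355 on day 0 in control cells. It was 4.05-fold lower on day 2 in knockdown cells and 4.60-fold lower in control cells.

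In control cells 6 of 36 Wnt genes were higher by 2-fold or more and 7 lower on day 2 than on day 0, where 19.9% of all compared genes were higher and 8.09% lower. Among bright genes 4 of 21 were higher and 3 lower, against 7.6% and 7.75% of all bright genes. In knockdown cells 5 of 37 were higher and 5 lower on day 2, where 4.97% of all compared genes were higher and 8.94% lower. Among bright genes 5 of 21 were higher and 2 lower in knockdown cells, against 6.17% and 9.22% of all bright genes. The median log2 ratio over induction of the bright Wnt genes was 0.39 in knockdown cells and 0.30 in control cells, where that of all bright genes was 0.08 in knockdown cells and 0.02 in control cells.

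Several bright genes passed 2-fold in 1 kind of cell. In control cells Porcn was 3.08-fold higher and the receptor Fzd3 2.28-fold higher on day 2, while the receptor Fzd2 was 2.14-fold lower. In knockdown cells the same genes were 1.31-fold higher (Porcn), 1.69-fold higher (Fzd3) and 1.91-fold lower (Fzd2). The 3 genes past 2-fold in knockdown cells were Nkd2, 2.84-fold higher, Fzd4, 2.50-fold higher, and Lgr4, 2.36-fold higher on day 2. In control cells Nkd2 was 1.17-fold, Fzd4 1.74-fold and Lgr4 1.33-fold higher. The co-receptor Lrp5 stopped just short of 2-fold in each kind of cell, with log2 ratios of 0.99 in knockdown cells and 1.00 in control cells, and it had 6511 on day 2 and 3286 on day 0 in knockdown cells and 5683 on day 2 and 2846 on day 0 in control cells. Among the dim genes, Tcf7 was 5.04-fold lower on day 2 in knockdown cells. In control cells Fzd9 was 3.88-fold and Sfrp5 2.97-fold higher, and Wnt10a was 4.16-fold and Nkd1 2.12-fold lower on day 2. These 4 ratios in control cells use the control day 0 array. They were short of 2-fold with cyclic loess for Fzd9 (log2 0.70) and Sfrp5 (0.74), with quantile normalisation for Sfrp5 (0.83), and for Nkd1 with normexp (-0.27) and the median of all probes (-0.33), while Wnt10a stayed past it in every setting. The second Nkd1 probe had a log2 ratio of 0.42 in that comparison, the opposite sign.

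**Figure D4:**
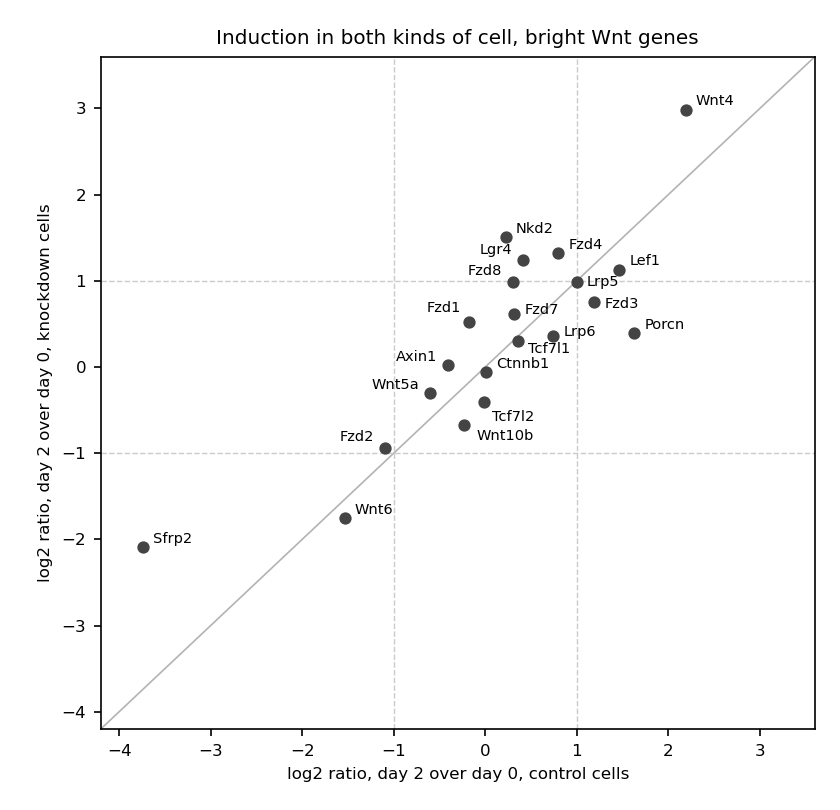
Log2 ratio of day 2 over day 0 for the 21 bright Wnt genes, in knockdown cells (vertical axis) and in control cells (horizontal axis), with dashed lines at 2-fold and equal values on the diagonal. Wnt4 and Sfrp2 lie at the far ends along both axes, and Nkd2, Lgr4 and Fzd4 pass 2-fold on the vertical axis alone. On the horizontal axis alone, Porcn and Fzd3 pass it upward and Fzd2 downward.

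Of the 37 Wnt genes compared, 17 had no ratio or bound past 2-fold in any of the 4 comparisons, where 61.7% of all compared genes had none. Of the 21 bright ones it was 10, against 74.1% of all bright genes. Ctnnb1, which encodes beta-catenin itself, had 32612 in knockdown cells and 30532 in control cells on day 2, and 34041 in knockdown cells and 30366 in control cells on day 0. Its ratios lay between 1.01-fold and 1.12-fold. Axin1, the scaffold of the complex that marks beta-catenin for destruction, had 4913 in knockdown cells and 4058 in control cells on day 2, and 4852 in knockdown cells and 5397 in control cells on day 0. Apc, its partner, lay between 197 and 223. Tcf7l1, a Tcf factor best known as a repressor, lay between 8122 and 13315, and Tcf7l2 between 453 and 599.

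The knockdown log2 ratio of day 2 minus that of day 0 was taken for the 33 Wnt genes measured on all 4 arrays. It was 1 or more for 4 and -1 or less for 4, where 2.9% and 16.9% of all genes so measured passed. Among the 21 bright genes 2 were above and 1 below, against 2.66% and 6.63% of all bright genes. Sfrp2 was above, with a difference of 1.64, since it was less far below control on day 2 than on day 0, and Nkd2 had 1.29. Porcn was below, with -1.23. Of the dim genes, Wnt9a had 1.08 and Wnt10a 1.22, while Sfrp5 had -1.64, Fzd6 -1.22 and Fzd9 -2.26. With 1 array per group none of these differences was tested.

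Genes of the pathway outside the 40 were read in 6 lists with 103 genes on the array. In the list of R-spondins, their receptors and the ligases they act on, Rspo3 and Rspo2, the ligands of Lgr4 and its relatives, were both lower in knockdown cells. Rspo3 had 235 in knockdown cells, against 1554 in control cells, on day 2, and 239.7 in knockdown cells, against 4156 in control cells, on day 0. Rspo3 was 6.62-fold lower in knockdown cells on day 2 and 17.3-fold lower on day 0. Rspo2 had 295 in knockdown cells, against 913 in control cells, on day 2, and 524 in knockdown cells, against 1249 in control cells, on day 0, which is 3.09-fold lower on day 2 and 2.39-fold lower on day 0. These were the bright members of that list, and Rspo3 is bright through its control arrays alone, since both knockdown arrays lay under the limit. Of all 7 compared, 0 were higher and 2 lower on day 2, against 2.86% and 3.98% of all compared genes. On day 0, 4 were higher and 2 lower, against 18.3% and 4.18%. The 4 were Rspo1, Rspo4 and Lgr5, each as a bound, and Lgr6. All 4 were dim and had their lowest signal on the control day 0 array, whose dim probes read low.

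The further receptors and co-receptors had 0 of 13 higher and 3 lower in knockdown cells on day 2, against 2.86% and 3.98% of all compared genes. On day 0, 3 of 14 were higher and 4 lower, against 18.3% and 4.18%. Of the 3 higher, Celsr1, a bound, and Celsr3 were dim, and Celsr2 was bright. Gpc4, a glypican that carries Wnt ligands on heparan sulphate chains, had 1181 in knockdown cells and 3783 in control cells on day 2, and 3182 in knockdown cells and 7947 in control cells on day 0. Gpc4 was 3.20-fold lower on day 2 and 2.50-fold lower on day 0. Its relative Gpc6 was 1.61-fold lower on day 2 and 3.03-fold lower on day 0. Ror2, a receptor for Wnt5a that was dim on these arrays, was 4.33-fold lower on day 2 and 3.45-fold lower on day 0, with 67.1 in knockdown cells and 290.5 in control cells on day 2 and 88.7 in knockdown cells and 306 in control cells on day 0. Lrp4, also dim, was 2.34-fold lower on day 2, and Gpc3, dim as well, was 2.24-fold lower on day 0. Celsr2, a cadherin of planar cell polarity, was 1.11-fold lower in knockdown cells on day 2 and 2.13-fold higher on day 0.

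Among further secreted or membrane-bound antagonists and release factors, 1 of 11 was higher and 1 lower in knockdown cells on day 2, against 2.86% and 3.98% of all compared genes. On day 0, 1 of 12 was higher and 0 lower, against 18.3% and 4.18%. Trabd2b, a membrane protease that cleaves Wnt ligands, had 17339 in knockdown cells, against 6154 in control cells, on day 2, and 2252 in knockdown cells, against 3375 in control cells, on day 0. It was 2.82-fold higher in knockdown cells on day 2, and in knockdown cells 7.70-fold higher on day 2 than on day 0. Apcdd1, a membrane inhibitor of Wnt signalling, had 232 in knockdown cells, against 720.0 in control cells, on day 2, and 664 in knockdown cells, against 1049.8 in control cells, on day 0. It was 3.1-fold lower in knockdown cells on day 2. Wls, the carrier that takes acylated Wnt ligands to the cell surface, was 1.38-fold higher on day 2 and 1.09-fold higher on day 0 in knockdown cells. Igfbp4, an insulin-like growth factor binding protein that can also oppose Wnt signalling, was 4.33-fold higher on day 2 than on day 0 in knockdown cells and 4.85-fold higher in control cells.

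The 34 further cytoplasmic and nuclear genes had 0 higher and 1 lower in knockdown cells on day 2, against 2.86% and 3.98% of all compared genes. On day 0 they had 0 higher and 0 lower, against 18.3% and 4.18%. The lower one on day 2 was Dact1, a Dishevelled-binding protein, 2.05-fold lower. Over induction, Prickle1, a planar polarity protein, was 2.22-fold higher on day 2 in knockdown cells and 2.18-fold higher in control cells. Csnk1a1, the casein kinase that first phosphorylates beta-catenin, was 2.16-fold higher on day 2 in knockdown cells.

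Of known beta-catenin target genes outside the 40, 3 of 18 compared were higher and 3 lower in knockdown cells on day 2, against 2.86% and 3.98% of all compared genes. On day 0, 2 were higher and 2 lower, against 18.3% and 4.18%. Many of these target genes also answer to other pathways. Ccnd1, cyclin D1, had 6217 in knockdown cells, against 14045 in control cells, on day 2, and 50738 in knockdown cells, against 41385 in control cells, on day 0. It was 2.26-fold lower in knockdown cells on day 2. Ccn4, a matricellular protein found as a Wnt1-induced gene, was 2.21-fold lower on day 2 and 2.89-fold lower on day 0 in knockdown cells, with 1423 in knockdown cells and 3144 in control cells on day 2 and 7148 in knockdown cells and 20649 in control cells on day 0. With the median of all probes the Ccn4 log2 ratio was -0.87 on day 2, short of 2-fold, and -1.29 on day 0. Ccn5, its relative, was 3.48-fold higher in knockdown cells on day 2 and 2.25-fold lower on day 0. Fosl1, a subunit of the AP-1 transcription factor, had 21606 in knockdown cells, against 5086 in control cells, on day 2, and 6389 in knockdown cells, against 1345 in control cells, on day 0. Fosl1 was 4.25-fold higher on day 2 and 4.75-fold higher on day 0 in knockdown cells. Id2, an inhibitor of basic helix-loop-helix factors, was 2.07-fold higher in knockdown cells on day 2.

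The repeat spots of an array say how finely 1 array reads a gene, not how cultures differ. Over 213 bright probes printed at least 8 times, the median SD of a log2 ratio was 0.035 between kinds of cell on day 2 and 0.054 on day 0. For 122 dim probes it was 0.24 on day 2 and 0.45 on day 0. Of the 12 Wnt genes with several probes, 8 probe comparisons past 2-fold could be set beside another probe of the gene, and 7 had the same sign. Over all 38 such comparisons, past 2-fold or not, 28 had the same sign. Sfrp2, Lgr4, Fzd4 and Porcn had 1 probe each. The genes nearest the 2-fold limit were Fzd4 (log2 -1.10, past it) and Wnt6 (-0.88, short of it) on day 2, and Wnt5b (1.06, past it) and Dkk3 (-0.97, short of it) on day 0. Over induction they were Nkd1 (-1.08) and Lrp5 (1.00, just short of it) in control cells and Lef1 (1.13) and Fzd8 (0.99) in knockdown cells.

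Of 10 fibroblast markers 9 were bright. Between the kinds of cell, 2.86% of all compared genes were higher and 3.98% lower in knockdown cells on day 2, and 18.3% and 4.18% on day 0. Of the 10 fibroblast markers 0 were higher and 2 lower in knockdown cells on day 2, and 0 were higher and 1 lower on day 0. The lower ones were Pdgfrb, with 2715 in knockdown cells and 5594 in control cells on day 2, Cd34, not well above background in knockdown cells and with 178 in control cells on day 2, and Thy1, with 17051 in knockdown cells and 50755 in control cells on day 0. The summed normalised signal of the list was 1057941 in knockdown cells and 1198855 in control cells on day 2, and 1286004 in knockdown cells and 1328877 in control cells on day 0. Cd34 was not well above background in knockdown cells on day 2. Of 9 fat cell markers compared, 1 was higher and 4 lower in knockdown cells on day 2, and 4 were higher and 0 lower on day 0. The sum of the fat cell markers was 60579 in knockdown cells and 35498 in control cells on day 2, and 12085 in knockdown cells and 9261 in control cells on day 0. Fabp4, a fatty acid binding protein, was the 1 higher on day 2 and made up most of the sum in knockdown cells. It had 52724 in knockdown cells on day 2, against 8593 in control cells. The 4 lower on day 2 were Pnpla2, the other bright marker, and the dim Adipoq, Plin1 and Retn. Pnpla2 had 6471 in knockdown cells and 24456 in control cells on day 2, and Plin1 had 85.6 and 354.5. Pck1 was not well above background on any array. In control cells all 9 were higher on day 2 than on day 0 by 2-fold or more, where 19.9% of all compared genes were. In knockdown cells 2 of the 9 were, against 4.97%. Of the 10 fat cell markers only 2 were bright, and the ratios in control cells use the control day 0 array, whose dim probes read low. The part of fat cell formation in the Wnt gene differences was not tested. Of other cell types, 0 of 5 epithelial, 2 of 5 endothelial, 2 of 5 macrophage (Csf1r and Itgam) and 1 of 5 muscle markers were bright. On day 2, none of these lists had a marker higher in knockdown cells, and 1 macrophage marker, Lyz2, was lower, with 25.6 in knockdown cells and 114 in control cells. On day 0, 4 of 5 muscle markers were higher in knockdown cells, against 18.3% of all compared genes. Among them was Myh1, with 433 in knockdown cells and 33.9 in control cells. Of 4 epithelial markers compared 3 were higher on day 0, among them Krt8 with 311 in knockdown cells and 18.9 in control cells, where it was not well above background. Of 5 macrophage markers 1 was higher and 1, Lyz2, lower on day 0, with 65.9 in knockdown cells and 415 in control cells, and of 5 endothelial markers 1 was higher and 0 lower. Except for Myod1, the muscle, epithelial, macrophage and endothelial markers higher on day 0 were dim, and the dim probes of the control day 0 array read low. The summed signal of the muscle markers was 1022.5 in knockdown cells and 900.2 in control cells on day 2, and 1459.8 in knockdown cells and 433 in control cells on day 0, and that of the epithelial markers 159 in knockdown cells and 163 in control cells on day 2, and 535 in knockdown cells and 83.2 in control cells on day 0. The sum of the macrophage markers was 50906 in knockdown cells and 36586 in control cells on day 2, and 41427 in knockdown cells and 22918 in control cells on day 0. Itgam alone made up most of it, with 48252 in knockdown cells and 32838 in control cells on day 2. On day 0 Itgam had 37503 in knockdown cells and 19521 in control cells. Csf1r, Lyz2, Ptprc and Adgre1 each read lower in knockdown cells on day 2, and of these Lyz2 alone did on day 0. The sum of the endothelial markers was 5469 in knockdown cells and 5499 in control cells on day 2, and 4434 in knockdown cells and 4201 in control cells on day 0. The part of these markers in the Wnt gene differences was not tested.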

How the data were processed

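Total RNA of 4 cultures was hybridised with Cy3 to Agilent arrays of design 028005, 1 per group, per the labels and file headers. The authors deposited spot intensity values made with Feature Extraction 10.7.3.1 (Agilent): per the file headers, background-subtracted, and detrended on 3 arrays but not on that of knockdown cells at day 0. No values were normalised between arrays, and those of control cells at day 0 were rounded to 3 significant digits. The files' probe positions are on mm9, per the file headers, and are not used. Each array held 59305 spots of 55681 probes, none saturated. Population and non-uniform outlier spots (156 to 260 per array) and control spots were left out. A level is the log2 of the deposited intensity minus the array's 75th percentile, and the normalised signal is that level put back on a linear scale.

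Accessions matched 27656 probes to 20956 genes in RefSeq's gene table. Genes marked well above background on 1 or both arrays of a pair were compared. Where 1 side was not so marked, its level was raised, if lower, to that of the dimmest probe so marked on its array, which gives a bound (at least N-fold). Bounds of the opposite sign were set to 0. Bounds count in list medians. Every Wnt gene past 2-fold is named with its signals, and of 6 further lists up to 3 genes per direction and comparison could be named. Sfrp3 and Tiki2, on 1 of those lists, are older symbols of Frzb and Trabd2b and matched no gene. The genes, lists and settings were chosen with earlier results of these data known. Python 3.11.15 (numpy 2.4.6, pandas 2.3.3, matplotlib 3.10.9) and R 4.3.3 (limma 3.58.1) were used. Alternatives were cyclic loess and quantile normalisation, normexp (offset 50) for the background, a percentile over other probes, 3 filters on low signals, each gene's median probe, outlier spots kept, a size of 1.5-fold and, added after the data were seen, signals without detrending.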

Additional observations from a re-analysis of the deposited data

Results flagged for a closer look

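In 2 genes the knockdown ratio passed 2-fold in opposite directions on the 2 days, and with 1 array per group the difference between the days was not tested. Fzd9, a dim receptor gene, had a log2 ratio of knockdown over control of -1.11 on day 2 and of 1.15 on day 0. The Fzd9 ratio was short of 2-fold with normexp on day 2 (-0.63), and on day 0 with quantile normalisation (0.19), cyclic loess (-0.08) and normexp (0.53), so its opposite calls hold in only some settings. Ccn5, a bright beta-catenin target gene, had a log2 ratio of 1.80 on day 2 and of -1.17 on day 0. Its normalised signal was 18023 in knockdown cells and 5182 in control cells on day 2, and 4587 in knockdown cells and 10325 in control cells on day 0. The Ccn5 ratios stayed past 2-fold in all 10 settings in which each was computed, between 1.74 and 1.83 on day 2 and between -1.17 and -1.11 on day 0.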

How the results depend on the processing

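Each group has 1 array with the same replicate number, so no replicate block was fitted, and an additive fit of kind of cell and day over the 4 arrays was not run. Of 24 values past 2-fold in bright Wnt genes, 21 stayed past it in every setting; the exceptions were Fzd7 on day 0 (log2 -0.69 with the median of all probes), Fzd3 in control cells over induction (down to 0.77) and Lef1 in knockdown cells over induction (0.99 with normexp). Of 17 such values in dim Wnt genes, 6 stayed past it: Wnt9a on day 0 and over induction in control cells, Wnt10a in the same comparisons, Dkk3 over induction in control cells, and the Tcf7 bound on day 0. Of the single values past 2-fold, that of Fzd9 on day 0 alone changed sign, to -0.0801 under cyclic loess from 1.15 as reported. The number of Wnt genes higher in knockdown cells on day 0 was 5 as reported. It was 3 with normexp, 1 with quantile, 1 with cyclic loess, 8 with no filter, 0 among bright genes and 8 at 1.5-fold. Of all 19268 genes compared on day 0, 3525 were higher as reported, 1345 with normexp, 1098 with quantile and 994 with cyclic loess. With no filter it was 5504 of 20956, among bright genes 641 of 11394, and at 1.5-fold 5618 of 19268. On day 2 the 1 higher and 5 lower became 3 and 8 at 1.5-fold. Over all 18559 genes compared on day 2, 530 higher and 739 lower became 1478 and 1665. Over induction in control cells the 6 higher became 3 with cyclic loess and 13 at 1.5-fold. The 7 lower became 3 among bright genes. Over all 18655 genes so compared, 3716 higher became 1153 with cyclic loess and 5887 at 1.5-fold, and 1509 lower became 883 of 11394 bright genes. Over induction in knockdown cells the 5 higher became 10 at 1.5-fold. The 5 lower became 2 with normexp, 2 among bright genes and 9 at 1.5-fold. Over all 19196 genes so compared, 954 higher became 2492 at 1.5-fold. Of these genes, 1716 lower became 1205 with normexp, 1051 of 11394 bright genes and 3083 at 1.5-fold. For the difference between days, the 4 above became 7 with quantile, 9 with cyclic loess, 2 among bright genes and 8 at 1.5-fold. The 4 below became 2 with quantile, 1 with cyclic loess, 1 among bright genes and 8 with no filter. Over all 15464 genes so measured, 448 above became 876 with quantile, 1215 with cyclic loess, 303 of 11389 bright genes and 1382 at 1.5-fold. Likewise 2609 below became 1082 with quantile, 921 with cyclic loess, 755 of 11389 bright genes and 5904 of 20956 with no filter. The cause was not tested, except that the filters and the 1.5-fold size alter by construction which genes can be counted. Of all compared genes past 2-fold, the share higher in knockdown cells on day 0 was 81.4%, against 45.9% with quantile and 36.5% with cyclic loess. For induction in control cells it was 71.1%, against 37.2% and 30.5%, and for the difference between days 14.7%, against 44.7% and 56.9%. Quantile normalisation moved the median log2 ratio of all genes to 0.00 from 0.12 on day 0 and from 0.18 for induction in control cells. Of the spots, 78.7% in knockdown cells and 84.2% in control cells on day 2, and 88.6% in knockdown cells and 67.4% in control cells on day 0, were well above background, which limits what can be read of dim genes.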

Other observations

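The 10 Wnt ligands outside the 40 genes were mostly dim. Wnt1 was the bright one, with 892 in knockdown cells and 797 in control cells on day 2, and 980.0 in knockdown cells and 671 in control cells on day 0. Of 8 compared, 0 were higher and 0 lower in knockdown cells on day 2, against 2.86% and 3.98% of all compared genes. On day 0, 4 were higher and 0 lower, against 18.3% and 4.18%. The 4 were Wnt2b, Wnt7a and Wnt8a, each as a bound, and Wnt8b, 3.83-fold higher. All 4 were dim and had their lowest signal on the control day 0 array, whose dim probes read low. Wnt3 and Wnt3a, ligands often used to activate beta-catenin, were not well above background on any array. Over induction 0 of 8 passed 2-fold in knockdown cells, where 4.97% of all compared genes were higher and 8.94% lower. In control cells 6 were higher on day 2 and 0 lower, against 19.9% and 8.09%. The 6 were Wnt2b, Wnt7a and Wnt8a, each as a bound, with Wnt8b, Wnt9b and Wnt16. All 6 were dim and had their lowest signal on the control day 0 array, whose part in these ratios was not tested.

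Some target genes differed over induction in both kinds of cell. Lbh, a transcriptional cofactor of limb and heart development, was 8.04-fold lower on day 2 in knockdown cells and 3.63-fold lower in control cells. Ccnd1 was 8.16-fold lower in knockdown cells and 2.95-fold lower in control cells. Id2 was 6.05-fold higher on day 2 in knockdown cells and 3.53-fold higher in control cells, and Myc was 2.08-fold higher in knockdown cells and 3.07-fold higher in control cells. Birc5, survivin, had 11146 on day 2 and 46582 on day 0 in knockdown cells, which is 4.18-fold lower on day 2, and 13851 on day 2 and 24119 on day 0 in control cells. These ratios were not tested.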
